A study of Mus musculus with 6 samples.

Results

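Immediate early genes are genes that a cell can transcribe at once after a stimulus, without making new protein first. The 10 studied here were Fos, Fosb, Jun, Junb, Egr1, Egr2, Egr3, Atf3, Nr4a1 and Ier2, taken by name from the 23420 genes of the deposited tables, and all 10 had reads in each of the 6 libraries. Fos and Jun proteins pair through a leucine zipper to form the transcription factor AP-1, which binds the promoters and enhancers of many genes of division, inflammation and matrix turnover. The Egr proteins are zinc finger transcription factors, and Atf3, Nr4a1 and Ier2 encode further nuclear proteins of the same rapid response. Growth factors, cytokines, stretch and injury switch these genes on through kinases acting on serum response factor and on CREB, and their messages are short lived. They are well known from injured and stressed heart and from activated fibroblasts and macrophages.

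To follow these genes during pericardial adhesion, total RNA of adhesion tissue at days 1, 3 and 7 and of heart at days 0, 3 and 7 was examined, with 1 library for each tissue and day. The animals were male C57BL/6 mice aged 8 weeks, and adhesion was raised by talc, an irritant mineral powder, given in saline into the pericardial cavity through the diaphragm. The day 0 heart is the one before induction, and no library of sham-injected animals was analysed here. For the earliest adhesion library, title and stage label name day 1 whereas the source label names day 0, and day 1 is used. A figure of the study likewise shows adhesion tissue at days 0, 3 and 7, with day 0 as the reference. For the first heart library the labels name day 0, whereas supplementary material of the study heads it day 1, so ratios in heart are to the library labelled day 0. The sources used here do not say whether a library held 1 animal or several. Adhesion tissue and heart were harvested separately, and the time from death to homogenisation is not stated. Its part in the levels of these short-lived messages was not tested.

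Adhesion libraries held 1615922 to 1844565 reads in genes and heart libraries 1713031 to 1818192. Levels are given as CPM, the reads of a gene per 1000000 reads in genes. Ratios between days of a tissue were taken on the deposited scale, which the authors set within each tissue, and ratios between tissues in CPM. Values in parentheses after a ratio are its exact 95% interval from the recovered reads, and all such intervals cover counting error only. No group had a replicate, so none of the differences below has been set against the spread between animals. In bulk tissue, fewer cells of a type and less RNA per cell cannot be told apart.

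The 10 genes are short. In the deposited coordinates (mm10), their spans had a median of 3560 bases, against 15194 bases over 23365 genes, and 7 of 10 spanned under 5000 bases, against 25.7% of all genes. Junb (chr8:84976909-84978748), Jun (chr4:95049036-95052222) and Ier2 (chr8:84661331-84662852), all on the minus strand, consist of 1 exon, as do 12.9% of all genes. Fos (chr12:85473901-85477270, plus strand) has 4 exons, and Nr4a1 (chr15:101266846-101274794, plus strand) has 7. Atf3 (chr1:191170297-191183333, minus strand) has the widest span, 13037 bases. Jun shares 232 exon bases with Junos, an RNA gene on the opposite strand, and the other 9 share none with another annotated gene. The library kit keeps strand, but how strand was set in counting is not stated, so part of the Jun reads could belong to Junos.

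Promoter stretches are shown for 5 of the 10 genes, so that the regulatory motifs found in them can be read beside the values. RefSeq promoters on GRCm38.p6 were matched for 7 of the 10 genes (all but Egr1, Egr3 and Ier2), and the 250 bases before the transcription start were searched on both strands. The half-site of the cAMP response element, TGACG, which CREB and ATF proteins bind, was present in 6 of the 7 (Fos, Fosb, Junb, Egr2, Atf3 and Nr4a1), against 17.8% of 32851 mouse promoters. The CArG box, the site of serum response factor, was present in Egr2 alone of the 7, against 1.47% of promoters. Bases farther upstream than 250 were not searched, so a gene without a match here may hold the site elsewhere. TATAAA was found in Fos, 33 to 28 bases before the start, against 12.4% of promoters. The ETS core CCGGAA was found in Nr4a1 (12.0% of promoters), GCGNGGGCG, an Egr site, in Fosb and Nr4a1 (4.70%), and the AP-1 site TGANTCA in none of the 7 (6.75%). No 2 of the matches overlapped. These are matches of letters, not measured sites. The stretches below run 5′ to 3′ on the strand of the gene. They are Fos at chr12:85473751-85473872 (plus strand), Fosb at chr7:19310091-19310115 (minus), Junb at chr8:84978840-84978864 (minus), Nr4a1 at chr15:101266603-101266820 (plus) and Egr2 at chr10:67537787-67537816 (plus). Capitals mark TGACG or its reverse complement CGTCA in the first 4, also TATAAA in Fos, and in Egr2 the CArG box.
Fos: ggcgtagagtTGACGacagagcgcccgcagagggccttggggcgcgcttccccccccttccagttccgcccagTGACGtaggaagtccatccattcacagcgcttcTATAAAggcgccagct
Fosb: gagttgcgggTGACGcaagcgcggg
Junb: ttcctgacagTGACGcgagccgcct
Nr4a1: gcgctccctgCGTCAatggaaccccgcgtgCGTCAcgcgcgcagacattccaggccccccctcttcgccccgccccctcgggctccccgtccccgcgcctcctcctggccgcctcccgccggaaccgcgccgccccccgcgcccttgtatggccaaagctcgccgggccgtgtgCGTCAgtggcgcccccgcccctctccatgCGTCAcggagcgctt
Egr2: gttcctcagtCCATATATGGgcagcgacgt
Fos holds 2 half-sites and Nr4a1 4, while Fosb and Junb hold 1 each. Egr2 also holds 2, at 111 to 107 and 55 to 51 bases before the start. Neither lies whole within the Egr2 stretch shown.

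In adhesion tissue the 10 genes followed different courses, and their sum was close at days 1 and 3. Together they made up 1113, 1061 and 897 CPM in adhesion tissue at days 1, 3 and 7, against 319, 335 and 266 CPM in heart at days 0, 3 and 7. On the deposited scale the sum at day 3 was 0.960 of that at day 1 in adhesion tissue (0.900 to 1.03). In heart it was 0.930 of that at day 0 (0.827 to 1.05). The direction in heart depended on the scale, since in CPM the sum was higher at day 3 (335) than at day 0 (319). At day 7 the sum was 1.21-fold lower than at day 1 in adhesion tissue (1.13 to 1.29) and 1.30-fold lower than at day 0 in heart (1.15 to 1.48). Between tissues the sum was 3.16-fold higher in adhesion tissue than in heart at day 3 (2.88 to 3.48) and 3.37-fold higher at day 7 (3.04 to 3.74).

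**Figure D1:**
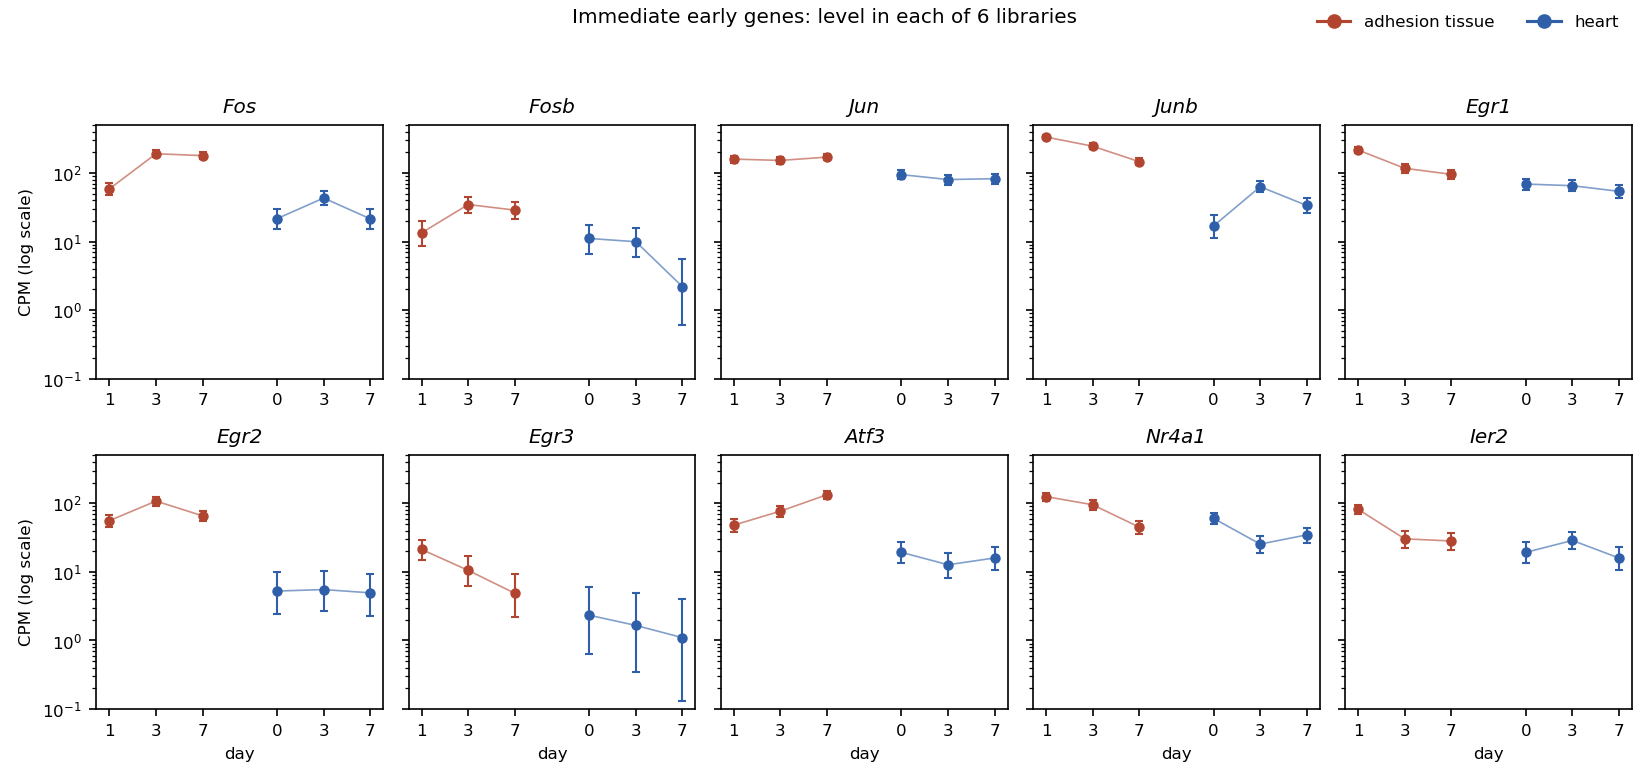
Level of each of the 10 immediate early genes in CPM (log axis) in the 3 adhesion libraries (red, left) and the 3 heart libraries (blue, right), by day. Bars are exact 95% Poisson intervals of 1 library and lines join the days of a tissue. For 8 of the 10 genes (all but Nr4a1 and Ier2) each adhesion library lies above each heart library, against 29.2% of all genes with a read, and in adhesion tissue Fos is lowest at day 1 while Junb, Egr1 and Egr3 are highest there.

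Fos encodes c-Fos, which binds DNA only with a partner such as a Jun protein. Fos had 58.7, 191 and 179 CPM in adhesion tissue at days 1, 3 and 7, against 21.6, 43.1 and 21.4 CPM in heart at days 0, 3 and 7. Every adhesion library was above every heart library, as it was for 8 of the 10 genes (all but Nr4a1 and Ier2), against 29.2% of 18074 genes with a read. Day 1 was the lowest of the 3 adhesion libraries. In adhesion tissue Fos was 3.27-fold higher at day 3 than at day 1 (2.62 to 4.13) and 3.12-fold higher at day 7 than at day 1 (2.50 to 3.93), while days 7 and 3 differed by less than counting error (ratio 0.954, 0.814 to 1.12). In heart Fos was 1.77-fold higher at day 3 than at day 0 (1.18 to 2.69), and at day 7 it was 1.93-fold lower than at day 3 (1.30 to 2.92). The heart level at day 7 was within counting error of that at day 0 (ratio 0.913, 0.567 to 1.47).

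Fosb encodes a close relative of c-Fos, and its splice form ΔFosB is known for its stability. Fosb had 13.4, 34.7 and 28.7 CPM in adhesion tissue, against 11.1, 9.94 and 2.20 CPM in heart. Day 1 was again the lowest adhesion library, and the heart library of day 7 held only 4 reads. In adhesion tissue Fosb was 2.60-fold higher at day 3 than at day 1 (1.59 to 4.39) and 2.19-fold higher at day 7 than at day 1 (1.33 to 3.72). In heart it was 5.48-fold lower at day 7 than at day 0 (1.82 to 22.2), and at day 3 its ratio to day 0 of 0.794 included 1 (0.393 to 1.60). Per exon length, Fos made up 88.8% to 91.8% of the 2 genes' sum in adhesion tissue and 77.8% to 94.6% in heart.

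Jun encodes c-Jun, which pairs with Fos proteins or with itself. It was the steadiest of the 10 in adhesion tissue, with 159, 152 and 170 CPM there at days 1, 3 and 7, against 94.6, 80.1 and 82.5 CPM in heart at days 0, 3 and 7. The intervals of all 3 ratios between adhesion days included 1, the widest departure being 1.14 for day 7 over day 3 (0.959 to 1.35). In heart Jun was 1.33-fold lower at day 3 than at day 0 (1.06 to 1.68), and this call was lost in CPM, where the ratio of 0.847 included 1 (0.672 to 1.07).

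Junb encodes JunB, a Jun protein that activates AP-1 targets less strongly than c-Jun in many settings. It was the highest of the 10 in adhesion tissue at day 1, with 334, 246 and 146 CPM at days 1, 3 and 7, against 16.9, 63.0 and 33.5 CPM in heart at days 0, 3 and 7. The tissues were ordered differently by day, with the highest adhesion library at day 1 and the highest heart library at day 3. In adhesion tissue Junb was 1.35-fold lower at day 3 than at day 1 (1.19 to 1.54) and 2.23-fold lower at day 7 (1.93 to 2.58). In heart it was 3.30-fold higher at day 3 than at day 0 (2.18 to 5.14), still 1.82-fold higher at day 7 than at day 0 (1.15 to 2.94), and 1.81-fold lower at day 7 than at day 3 (1.31 to 2.51).

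Egr1 encodes the best studied Egr protein, which binds GC-rich sites. It had 216, 117 and 95.4 CPM in adhesion tissue at days 1, 3 and 7, against 68.9, 65.2 and 53.9 CPM in heart at days 0, 3 and 7. Each adhesion library was above each heart library, and day 1 stood highest. In adhesion tissue Egr1 was 1.83-fold lower at day 3 than at day 1 (1.53 to 2.19) and 2.21-fold lower at day 7 (1.84 to 2.65). In heart the ratio of day 3 to day 0 was 0.838 (0.644 to 1.09). At day 7 Egr1 was 1.39-fold lower than at day 0 in heart (1.05 to 1.83), but in CPM the ratio of 0.782 included 1 (0.592 to 1.03).

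Egr2, known as Krox20 for its part in myelination by Schwann cells, had the largest ratio of adhesion tissue to heart at days 3 and 7 by point estimate. It had 55.9, 108 and 65.6 CPM in adhesion tissue, against 5.25, 5.52 and 4.95 CPM in heart, where each library held 9 or 10 reads. In adhesion tissue it was 1.94-fold higher at day 3 than at day 1 (1.51 to 2.51) and 1.62-fold lower at day 7 than at day 3 (1.27 to 2.05), so that day 7 and day 1 did not differ beyond counting error (ratio 1.20, 0.915 to 1.58). In heart the ratios of days 3 and 7 to day 0 were 0.931 (0.340 to 2.59) and 0.867 (0.305 to 2.46), and the first of these lay above 1 in CPM. Differences within these intervals were not detectable at this depth.

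Egr3, needed for muscle spindles in mice, was at the low end of the 10 genes. It had 38, 17 and 9 reads in adhesion tissue at days 1, 3 and 7 (21.2, 10.5 and 4.88 CPM), against 4, 3 and 2 reads in heart at days 0, 3 and 7 (2.34, 1.66 and 1.10 CPM). The heart values of days 3 and 7 were at or under 3 reads, which is 1.65 to 1.66 CPM in those libraries. In adhesion tissue Egr3 was 2.0-fold lower at day 3 than at day 1 (1.10 to 3.78) and 4.25-fold lower at day 7 than at day 1 (2.02 to 9.99). Egr1 and Egr3 were thus lower at day 3 than at day 1 in adhesion tissue while Egr2 was higher.

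Atf3 encodes a zipper protein of the ATF/CREB family that is switched on by many stresses and represses many of its targets. It had 48.0, 76.7 and 133 CPM in adhesion tissue at days 1, 3 and 7, against 19.3, 12.7 and 15.9 CPM in heart at days 0, 3 and 7. It was the 1 member with a higher level at each later adhesion day. In adhesion tissue it was 1.61-fold higher at day 3 than at day 1 (1.21 to 2.14), 2.84-fold higher at day 7 than at day 1 (2.22 to 3.68) and 1.77-fold higher at day 7 than at day 3 (1.42 to 2.21). In heart its ratios to day 0 were 0.584 at day 3 (0.328 to 1.03) and 0.761 at day 7 (0.446 to 1.29).

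Nr4a1 encodes the orphan nuclear receptor Nur77. It had 125, 95.3 and 45.0 CPM in adhesion tissue, against 60.1, 25.4 and 34.6 CPM in heart. It was highest in the first library of both tissues, and the adhesion library of day 7 lay below the heart library of day 0. In adhesion tissue Nr4a1 was 1.30-fold lower at day 3 than at day 1 (1.06 to 1.61) and 2.72-fold lower at day 7 (2.10 to 3.54). In heart it was 2.67-fold lower at day 3 than at day 0 (1.87 to 3.87) and 1.89-fold lower at day 7 (1.37 to 2.62).

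Ier2 encodes a small nuclear protein. It had 81.6, 30.3 and 28.2 CPM in adhesion tissue, against 19.3, 28.7 and 15.9 CPM in heart. Day 1 of adhesion tissue stood above the other 5 libraries. In adhesion tissue Ier2 was 2.67-fold lower at day 3 than at day 1 (1.92 to 3.77) and 2.83-fold lower at day 7 (2.05 to 3.96). In heart the ratio of day 3 to day 0 was 1.32 (0.838 to 2.11), and at day 7 Ier2 was 1.73-fold lower than at day 3 (1.08 to 2.83).

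**Figure D2:**
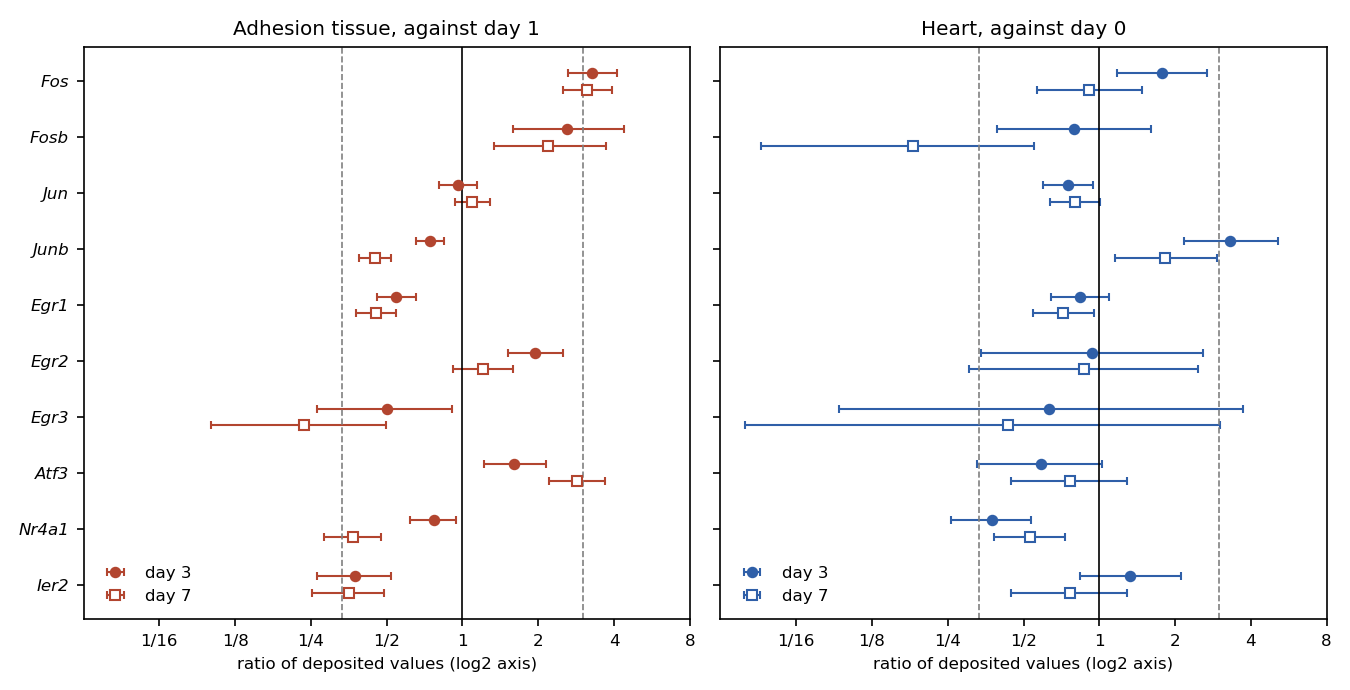
Ratio of each later library to the first of its tissue (log2 axis) for the 10 genes, in adhesion tissue over day 1 (left, red) and in heart over day 0 (right, blue). Filled circles are day 3, open squares day 7, bars exact 95% intervals for counting error, and dashed lines mark 3-fold. In adhesion tissue the whole intervals of Fos, Fosb and Atf3 lie above 1 on both days and those of Junb, Egr1, Egr3, Nr4a1 and Ier2 below 1. In heart only the intervals of Junb lie above 1 on both days and only those of Nr4a1 below 1.

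Counted over 3-fold with a pseudocount of 1, few members differed between days. In adhesion tissue at day 3 over day 1, 1 of 10 was higher (Fos), against 3.78% of 16946 genes with a read, and 0 were lower, against 6.70% of genes. At day 7 over day 1, 1 of 10 was higher (Fos, background 5.13%) and 1 lower (Egr3, background 4.88%). Between days 7 and 3, no member was past 3-fold, against 4.88% of genes higher and 1.82% lower. In heart at day 3 over day 0, Junb was the 1 of 10 higher (background 6.66%) and none was lower (1.77%). The heart library of day 7 had no member over 3-fold higher than at day 0 (6.84%) and 1 lower (Fosb, 1.52%). Against day 3 it had none higher (2.93%) and 1 lower (Fosb, 2.37%). With 10 members these counts stand near their backgrounds. The members' median log2 ratio was −0.22 at day 3 and −0.50 at day 7 in adhesion tissue, against −0.10 and −0.05 over all genes with a read, and −0.28 and −0.38 in heart, against −0.02 and −0.00.

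By the counting interval, 9 of 10 members differed between days 3 and 1 in adhesion tissue and 4 of 8 between days 3 and 0 in heart. Genes with more reads have narrower intervals, so such counts and shares depend on read number as well as on the difference. The background was not matched to the members by read number. Among members with at least 30 reads in the 2 libraries compared, the interval lay above 1 for 4 of 10 in adhesion tissue at day 3 over day 1 (Fos, Fosb, Egr2 and Atf3), against 17.8% of 10431 genes, and below 1 for 5 of 10 (Junb, Egr1, Egr3, Nr4a1 and Ier2), against 23.7%. Jun was the remaining gene. At day 7 over day 1 the interval lay above 1 for 3 of 10 (Fos, Fosb and Atf3), against 19.4%, and below 1 for the same 5, against 26.1%. Between days 7 and 3, Atf3 was the 1 of 9 above 1 (15.4%), and Junb, Egr2 and Nr4a1 were the 3 of 9 below 1 (12.9%). For heart at day 3 over day 0, 2 of 8 lay above 1 (Fos and Junb, against 11.7%) and 2 of 8 below (Jun and Nr4a1, against 17.5%). For heart at day 7 over day 0, 1 of 7 lay above (Junb, 10.9%) and 2 of 7 below (Egr1 and Nr4a1, 16.1%). Fosb had under 30 reads there and was not counted. For heart at day 7 over day 3, 0 of 7 lay above (8.42%) and 3 of 7 below (Fos, Junb and Ier2, 5.84%). The recovered reads were also put to an exact binomial test, chosen after seeing the data and adjusted by Benjamini-Hochberg over all genes with a read. It compares 2 libraries and not the conditions. At an adjusted threshold of 0.05 it called 4 members higher and 3 lower in adhesion tissue at day 3 over day 1 (background 9.31% and 12.3%), 3 and 5 at day 7 over day 1 (10.9% and 13.7%), and 1 and 3 at day 7 over day 3 (6.99% and 4.81%). In heart it called 2 higher and 1 lower at day 3 over day 0 (5.18% and 6.75%), 0 and 2 at day 7 over day 0 (4.89% and 5.59%), and 0 and 2 at day 7 over day 3 (1.86% and 1.08%). Between adhesion tissue and heart it called 9 higher and 0 lower at day 3 (24.2% and 16.1%) and 8 higher and 0 lower at day 7 (23.4% and 13.7%).

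In heart at day 3 over day 0 the median log2 ratio of genes with at least 30 reads was −0.06 on the deposited scale and 0.11 in CPM, and the calls of Jun at day 3 and Egr1 at day 7 in heart are the 2 calls of members between heart days that CPM removed.

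The order of the 10 genes within a library differed with day and tissue when levels were set per exon length as RPKM, the CPM per kilobase of exon. In adhesion tissue at day 1 Junb led with 182 RPKM, 2.59-fold above the next gene, Egr1 (2.27 to 2.95), and at day 3 Junb led with 134 RPKM, 1.47-fold above Fos (1.26 to 1.71). At day 7 Fos (85.4 RPKM), Junb (79.6 RPKM) and Atf3 (67.5 RPKM) came first, and neighbours among these 3 did not differ beyond counting error. In heart at day 0 Jun (29.7 RPKM), Nr4a1 (24.3 RPKM) and Egr1 (22.4 RPKM) led without a difference between neighbours. Junb led in heart at day 3 with 34.2 RPKM, 1.36-fold above Jun (1.06 to 1.75), and Jun led at day 7 with 25.9 RPKM, 1.42-fold above Junb (1.05 to 1.94). Egr3, Fosb and, in heart, Egr2 were at the low end.

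Ratios between 2 members within a library do not depend on how libraries are scaled. The pairs shown were chosen after their values had been seen. The RPKM ratio of Junb to Jun was 3.63 (3.15 to 4.20), 2.80 (2.38 to 3.29) and 1.49 (1.26 to 1.76) in adhesion tissue at days 1, 3 and 7, against 0.310 (0.201 to 0.462), 1.36 (1.06 to 1.75) and 0.704 (0.514 to 0.955) in heart at days 0, 3 and 7. Junb thus exceeded Jun in each adhesion library and, of the heart libraries, at day 3 alone. Of the sum of both, Junb made up 78.4%, 73.7% and 59.8% in adhesion tissue, against 23.7%, 57.7% and 41.3% in heart. The ratio of Fos to Jun was 0.561 (0.444 to 0.704), 1.91 (1.61 to 2.26) and 1.60 (1.37 to 1.87) in adhesion tissue, against 0.348 (0.236 to 0.499), 0.819 (0.614 to 1.09) and 0.396 (0.271 to 0.566) in heart. Fos was below Jun at day 1 and above it at days 3 and 7 of adhesion tissue, with intervals that did not overlap.

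Within the Egr genes the balance of Egr1 and Egr2 differed between the tissues in every library. Egr1 was 3.73-fold above Egr2 per length in adhesion tissue at day 1 (2.98 to 4.69), 1.05-fold at day 3 (0.849 to 1.30) and 1.40-fold at day 7 (1.11 to 1.78), against 12.7-fold (6.44 to 28.4), 11.4-fold (5.98 to 24.4) and 10.5-fold (5.32 to 23.7) in heart at days 0, 3 and 7. The adhesion and heart intervals did not overlap. Egr2 made up 18.1%, 44.4% and 39.1% of the sum of the 3 Egr genes in adhesion tissue, against 6.86%, 7.68% and 8.35% in heart. Across the families, the ratio of Fos to Egr1 was 0.399 (0.319 to 0.496), 2.39 (1.99 to 2.88) and 2.75 (2.28 to 3.32) in adhesion tissue, against 0.460 (0.309 to 0.671), 0.970 (0.719 to 1.30) and 0.584 (0.392 to 0.854) in heart.

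**Figure D3:**
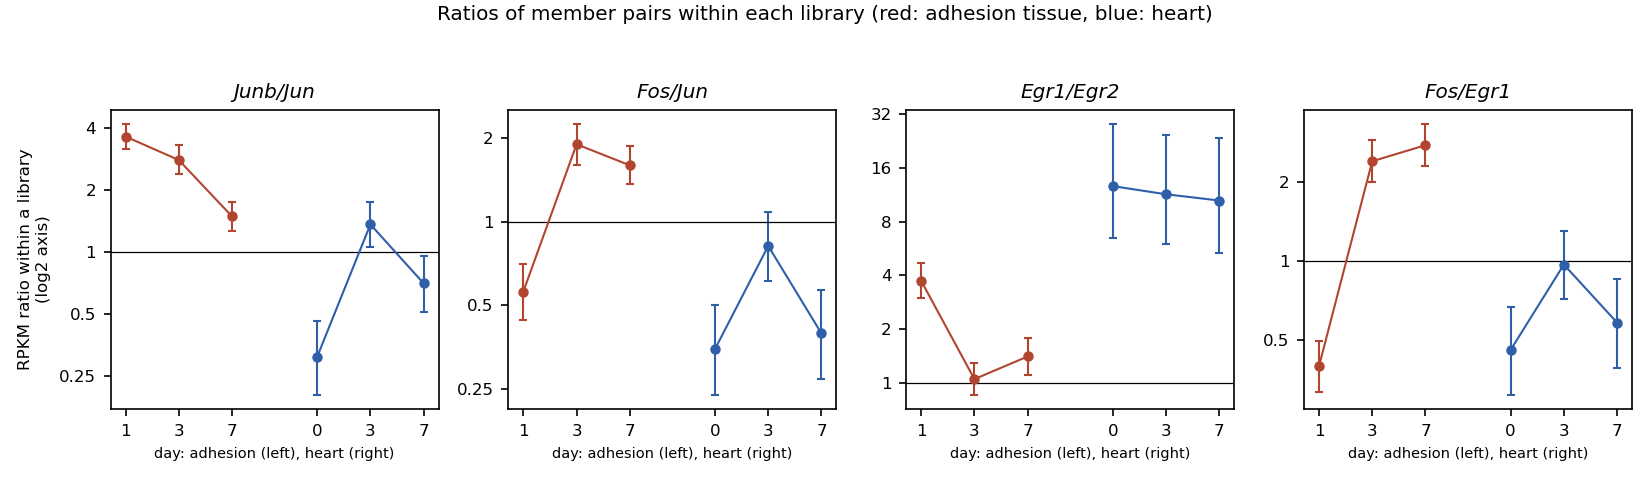
RPKM ratio of 2 members within each library (log2 axis) for Junb over Jun, Fos over Jun, Egr1 over Egr2 and Fos over Egr1, in adhesion tissue (red, left) and heart (blue, right), by day. Bars are exact 95% intervals for counting error and the black line marks equal levels. Fos over Egr1 lies at 0.399 in adhesion tissue at day 1 and at 2.39 and 2.75 at days 3 and 7, and Egr1 over Egr2 is at least 10.5 in each heart library and at most 3.73 in adhesion tissue.

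At days 3 and 7, when both tissues were taken, most of the 10 genes were higher in adhesion tissue than in heart. At day 3, 7 of 10 were over 3-fold higher, against 10.2% of 16607 genes with a read, and 0 were lower, against 9.30%. These were Egr2 at 19.5-fold (10.4 to 41.4), Egr3 at 6.35-fold (1.84 to 33.8), Atf3 at 6.04-fold (3.85 to 9.88), Fos at 4.42-fold (3.44 to 5.75), Junb at 3.90-fold (3.16 to 4.85), Nr4a1 at 3.75-fold (2.68 to 5.33) and Fosb at 3.49-fold (2.02 to 6.30). Egr3 rested on 17 reads in adhesion tissue and 3 reads in heart. Jun was 1.90-fold higher in adhesion tissue (1.54 to 2.35) and Egr1 1.79-fold higher (1.42 to 2.28). Ier2 did not differ beyond counting error at day 3 (ratio 1.06, 0.700 to 1.59), and its direction turned under TMM and DESeq2 scaling.

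At day 7, 5 of 10 were over 3-fold higher in adhesion tissue than in heart, against 9.33% of 16788 genes, and 0 were lower, against 6.86%. These were Egr2 at 13.3-fold (6.75 to 29.7), Fosb at 13.1-fold (4.81 to 49.7), Atf3 at 8.36-fold (5.68 to 12.7), Fos at 8.34-fold (5.97 to 11.9) and Junb at 4.36-fold (3.29 to 5.86). Fosb rested on 4 heart reads. Jun was 2.06-fold higher (1.69 to 2.52) and Egr1 1.77-fold higher (1.38 to 2.29). Ier2 was 1.77-fold higher (1.10 to 2.89), but the interval included 1 under TMM (1.48-fold, 0.921 to 2.41), under DESeq2 size factors and on totals without muscle, erythroid and ribosomal RNA genes (1.60-fold, 0.997 to 2.61). Nr4a1 (ratio 1.30, 0.925 to 1.83) and Egr3 (ratio 4.44, 0.918 to 42.2) did not differ beyond counting error. Of the 9 members with at least 30 reads in the pair of libraries, the interval lay above 1 for 8 at each day, against 38.0% of genes at day 3 and 37.9% at day 7, and below 1 for 0, against 25.0% and 22.0%. The median log2 ratio of the members was 1.91 at day 3 and 1.79 at day 7, against 0.22 and 0.29 over all genes with a read. Over genes with at least 30 reads this median was 0.23 and 0.26 in CPM and −0.02 and 0.01 under TMM.

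**Figure D4:**
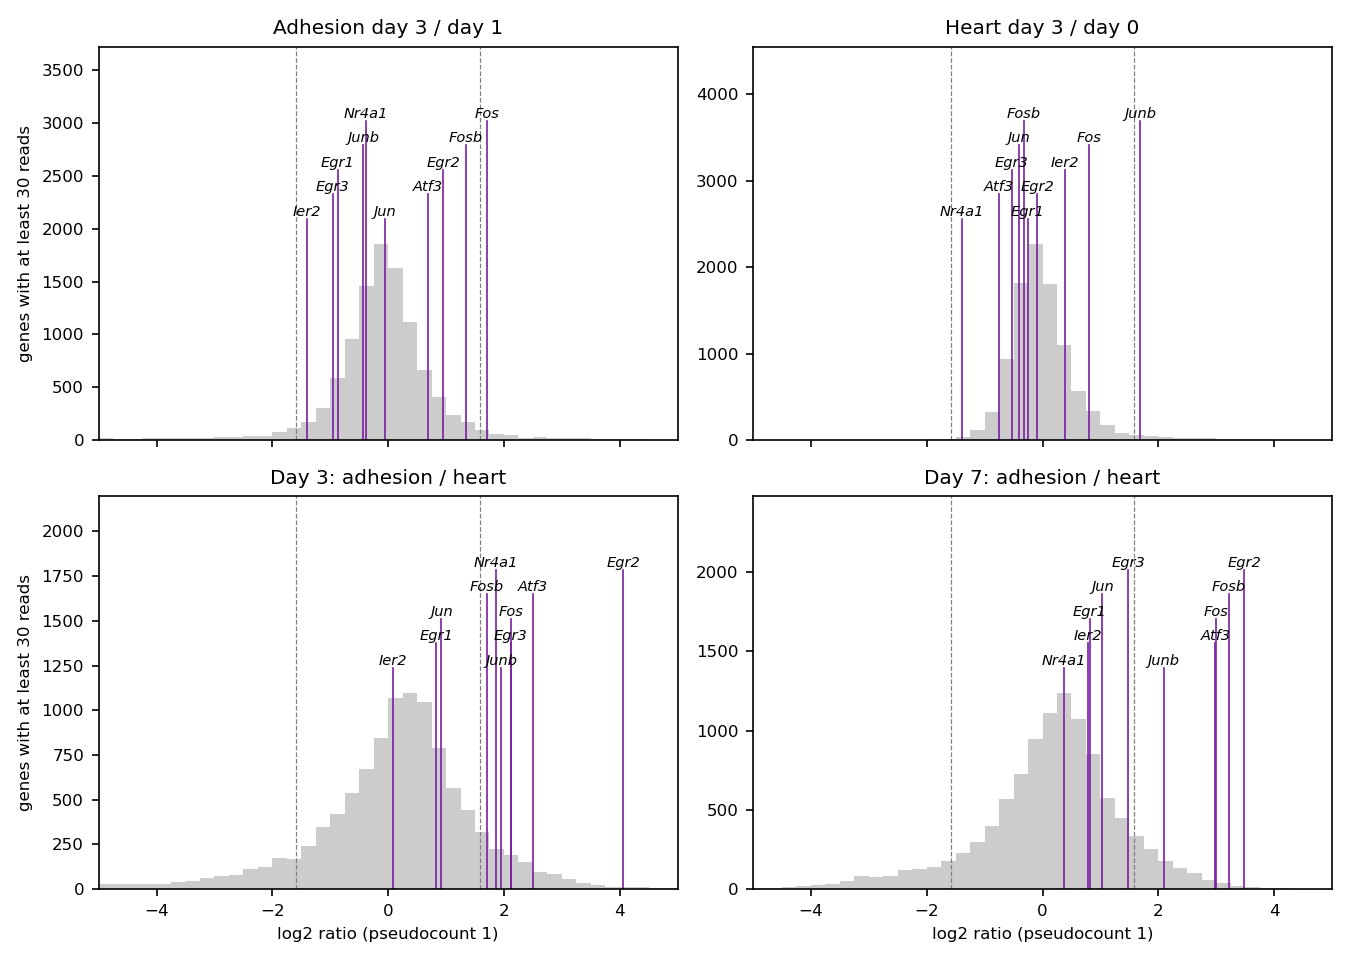
Number of genes with at least 30 reads (grey, bins of 0.25) by log2 ratio with a pseudocount of 1, for adhesion tissue at day 3 over day 1, heart at day 3 over day 0, and adhesion tissue over heart at days 3 and 7. Purple lines mark all 10 members (line height has no meaning) and dashed lines 3-fold. The members lie on both sides of 0 between days, and between tissues 7 of 10 lie past the 3-fold line at day 3 and 5 of 10 at day 7.

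Other genes of the pathway were read from lists written with earlier results of these data known. Of 40 other immediate early genes, 39 had reads in adhesion tissue, and the interval of day 3 over day 1 lay above 1 for 6 and below 1 for 22, against 12.5% and 16.6% of all genes with a read. In heart at day 3 over day 0 it lay above 1 for 9 of 38 and below 1 for 15, against 9.19% and 11.2%. The lists were counted without a read filter, unlike the members above. Among genes with at least 30 reads the shares were 17.8% and 23.7% in adhesion tissue and 11.7% and 17.5% in heart. Plk2, a kinase of the cell cycle, was 2.78-fold higher in adhesion tissue at day 3 than at day 1 (2.11 to 3.69), and Ptgs2, the inducible enzyme of prostaglandin synthesis, was 2.87-fold lower (2.20 to 3.77). Rhob, a small GTPase, was 1.56-fold higher (1.30 to 1.88), and Mafk, a small Maf protein, was 3.04-fold lower (2.08 to 4.53). In heart Socs3, an inhibitor of cytokine signalling, was 5.47-fold higher at day 3 than at day 0 (3.27 to 9.73) and Myc, a growth factor-induced transcription factor, 4.71-fold higher (2.20 to 11.6). Nr4a3, a relative of Nr4a1, was 5.97-fold lower in heart at day 3 (2.0 to 24.0), and Ctgf, a matricellular protein gene, 2.42-fold lower (2.01 to 2.92). Between tissues, 10 of 39 were over 3-fold higher in adhesion tissue than in heart at day 3 and 0 were lower, against 10.2% and 9.30% of all genes.

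Of 16 feedback inhibitors, which switch the kinases and factors off again, the interval of day 3 over day 1 in adhesion tissue lay above 1 for 2 and below 1 for 8 (12.5% and 16.6% of all genes). Nab2, a corepressor of Egr proteins, was 1.52-fold higher (1.16 to 2.01) and Spred2, an inhibitor of Ras signalling, 1.64-fold higher (1.15 to 2.36). Nfkbia, the inhibitor of NF-κB, was 1.92-fold lower (1.71 to 2.17), and Dusp8, a MAP kinase phosphatase, 5.02-fold lower (1.91 to 16.6). In heart at day 3 over day 0 the interval lay above 1 for 2 of 16 (Dusp6 and Tnfaip3) and below 1 for 2 (Dusp8 and Dusp1), against 9.19% and 11.2% of all genes, but in CPM the ratio of Dusp1, 0.923, included 1 (0.756 to 1.13). Of 20 upstream kinases and factors, it lay above 1 for 3 and below 1 for 5 in adhesion tissue at day 3 (12.5% and 16.6%), and above 1 for 1 and below 1 for 3 in heart (9.19% and 11.2%). Among genes with at least 30 reads the shares were 17.8% and 23.7% in adhesion tissue and 11.7% and 17.5% in heart. Srf, which encodes serum response factor, was 1.37-fold lower in heart at day 3 than at day 0 (1.10 to 1.71), and in CPM its ratio of 0.823 included 1 (0.661 to 1.02).

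Of 15 other AP-1 family members, the interval lay above 1 for 3 and below 1 for 5 in adhesion tissue at day 3 over day 1 (12.5% and 16.6%), and above 1 for 3 and below 1 for 2 of 13 in heart (9.19% and 11.2%). Jund, Fosl1, Fosl2, Maff and Mafk were also on the list of other immediate early genes, so the counts of the lists overlap. Maf was 2.52-fold higher in adhesion tissue at day 3 (2.08 to 3.05) and 2.12-fold higher in heart (1.44 to 3.17). Fosl2, which encodes Fra-2, was 1.76-fold higher in heart at day 3 than at day 0 (1.43 to 2.17), and Jund 1.47-fold lower (1.19 to 1.83). For 9 heat shock genes the interval of the later day lay above 1 for 0 in either tissue, against 12.5% and 13.9% of all genes at days 3 and 7 in adhesion tissue and 9.19% and 8.46% in heart. It lay below 1 for 5 at day 3 and 9 at day 7 in adhesion tissue, against 16.6% and 17.8%, and for 8 at each day in heart, against 11.2% and 10.2%. Among genes with at least 30 reads the shares below 1 were 23.7% and 26.1% in adhesion tissue and 17.5% and 16.1% in heart. The summed level of the heat shock genes was 3722, 1948 and 1760 CPM in adhesion tissue at days 1, 3 and 7, against 2519, 1852 and 1532 CPM in heart at days 0, 3 and 7.

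Marker genes of several cell types differed between the same libraries. The 10 cardiomyocyte markers, all detected in each library, summed to 515 to 28044 CPM in adhesion tissue, lowest at day 3, against 118963 to 147323 CPM in heart. In adhesion tissue at days 1, 3 and 7, 7 of 8 neutrophil markers found in the tables summed to 2441, 704 and 615 CPM, 8 macrophage markers to 2539, 6524 and 6675 CPM, and 6 fibroblast markers to 2381, 28399 and 44568 CPM. In heart at days 0, 3 and 7 the same lists summed to 28.6, 120 and 101 CPM, 349, 1243 and 1508 CPM, and 1458, 11515 and 12159 CPM. The neutrophil marker Elane was at 0 in 5 of the 6 libraries, while S100a8, S100a9, Cxcr2 and Csf3r had reads in each. The 10 skeletal muscle markers summed to 6814, 14.2 and 2299 CPM in adhesion tissue, with 3 of them at 0 at day 3, against 801 to 1282 CPM in heart. The 6 lung epithelium markers summed to 490, 10.5 and 604 CPM in adhesion tissue, against 2.34, 4.42 and 199 CPM in heart. The 6 T cell and thymocyte markers summed to 262, 32.2 and 20.1 CPM in adhesion tissue, against 1.75, 5.52 and 22.0 CPM in heart. The 6 endothelial markers summed to 472 to 694 CPM in adhesion tissue, against 1016 to 1078 CPM in heart. For 6 smooth muscle markers the sums were 363 to 1093 CPM, against 1931 to 2753 CPM. For 6 mesothelial markers they were 64.5 to 93.4 CPM, against 8.84 to 42.0 CPM. The part of these cell types in the levels of the 10 genes was not tested.

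Among 7996 other genes with at least 200 reads over the 6 libraries, those whose profile lay nearest to the mean profile of the 10 members were Tuba1c, Zfp36, Sec11c, Sf3b4, Klhdc4 and Bst2. The measure was the Euclidean distance of centred log2(CPM + 1) over 6 libraries, and it was 0.26 for Tuba1c, an alpha-tubulin gene, and 0.33 for Zfp36. Zfp36, itself on the list of other immediate early genes, encodes a protein that speeds the decay of AU-rich messages. It had 277, 233 and 196 CPM in adhesion tissue at days 1, 3 and 7, against 70.1, 63.0 and 58.3 CPM in heart at days 0, 3 and 7. The members themselves lay from 1.21 (Egr1) to 2.20 (Egr2) from their mean. The 6 genes above were picked as the nearest of all candidates, so their distances are no yardstick for those of the members.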

How the data were processed

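RNA was sequenced on a MiSeq from directional, ribosomal RNA-depleted libraries. TopHat, Cufflinks, edgeR and the mm10 build are listed in the submitters' processing notes. Their versions, the annotation and the strand setting are not stated. The signal the authors deposited for each gene was a read count times 1 factor per library, scaled within a tissue. In all 6 libraries 100% of values were whole reads within 0.1 read. The deposited length, another column, gave RPKM. The authors also deposited columns headed stat_sam, rank_sam and fdr_sam, their own score, rank and q-value over the 3 libraries of a tissue, which were not used.

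Genes were called over 3-fold on the log2(value + 1) scale, without a filter on low counts. Ratios carry exact conditional binomial intervals and levels exact Poisson intervals (Python 3.11.15, scipy 1.17.1). A level of 3 reads corresponds to 1.63 to 1.86 CPM. With 1 library per group no test between groups was possible. The intervals and the 3-fold call were tested on simulated reads with counting error only. Those reads held no spread between animals, so the test says nothing about it. The text names all 10 members and, from each list, up to 2 genes per direction, ranked by the interval bound nearest to 1 among those with at least 20 reads, at day 3 in each tissue. The members and lists were chosen with earlier results of these data known. The alternatives were other pseudocounts, read filters, a 2-fold threshold, CPM, edgeR 4.0.16 TMM, DESeq2 1.42.0 size factors and totals without 26 muscle, erythroid and ribosomal RNA genes. A binomial test of the reads was added after the data had been seen. Dates had replaced 27 gene names per tissue.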

Additional observations from a re-analysis of the deposited data

Results flagged for a closer look

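For 4 of the 10 genes both later libraries lay on one side of the first in adhesion tissue and on the opposite side in heart, against 21% of 13093 genes with a read in each library. Each tissue has 1 library per day, so the difference between tissues was not tested. The values are the log2 ratio to day 1 in adhesion tissue minus the log2 ratio to day 0 in heart. For Fosb the difference was 1.71 at day 3 and 3.59 at day 7, and for Atf3 1.46 and 1.90. For Junb it was −2.15 at day 3 and −2.02 at day 7. For Egr2 it was 1.06 at day 3 and 0.47 at day 7, but the heart libraries held 9, 10 and 9 reads and in CPM the heart ratio at day 3 was above 1, so the opposite sides did not hold there. The adhesion interval of Egr2 at day 7 also included 1 (ratio 1.20, 0.915 to 1.58). The heart intervals included 1 for Atf3 and Egr2 at both days and for Fosb at day 3. The summed level of the neutrophil markers was lower in adhesion tissue and higher in heart at both later days than in the first library (2441, 704 and 615 CPM in adhesion tissue, against 28.6, 120 and 101 CPM in heart), as it was for Junb. Of that list Mpo had 2, 1 and 7 reads and Elane 0, 0 and 5 in adhesion tissue, and in heart Mpo had 1, 0 and 0 reads and Retnlg 3, 7 and 3. The summed T cell and thymocyte markers went the same way (262, 32.2 and 20.1 CPM in adhesion tissue, against 1.75, 5.52 and 22.0 CPM in heart). For both lists their part in the result was not tested.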

How the results depend on the processing

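No paired analysis was possible because each group had 1 library. Of 555 values of single genes under the alternatives, 554 stayed within the counting interval of the reported value and 1 moved, Fosb between tissues at day 7 with a pseudocount of 5 (log2 2.23). The medians over the members kept their sign in all 56 values and moved by at most 0.34 on the log2 scale (between tissues at day 3 with a pseudocount of 5). Scaling turned the direction of Egr2 in heart at day 3 over day 0 (log2 0.06 in CPM) and of Ier2 between tissues at day 3 (log2 −0.18 under TMM, −0.12 under DESeq2). The summed level of the members in heart at day 3 over day 0 also changed direction in CPM. The interval of Egr1 in adhesion tissue at day 7 over day 3 lay below 1 only on totals without muscle, erythroid and ribosomal RNA genes (1.27-fold lower, 1.03 to 1.57).

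Counts of members over 3-fold depended on the threshold. At 2-fold, 2 were higher and 1 lower in adhesion tissue at day 3 over day 1 (9.51% and 13.7% of all genes with a read), 3 higher and 5 lower at day 7 over day 1 (11.1% and 12.0%), 1 lower at day 7 over day 3 (6.15%), and 1 lower in heart at day 3 over day 0 (7.62%). Between tissues at day 7, Jun (log2 ratio 1.04) and Egr3 (log2 ratio 1.49, interval including 1) also passed 2-fold, as did 21.3% of all genes. With a pseudocount of 5, 0 were lower in adhesion tissue at day 7 over day 1 and 0 lower in heart at day 7 over day 3. The same pseudocount put Fosb and Egr3 under 3-fold between tissues at day 3. TMM and DESeq2 size factors put Fosb under 3-fold there as well. On totals without muscle, erythroid and ribosomal RNA genes, 0 were higher in adhesion tissue at day 7 over day 1. The binomial test of reads, which compares 2 libraries and not the conditions and has no fold threshold, was chosen after seeing the data. At a Benjamini-Hochberg adjusted threshold of 0.05 it called 4 higher and 3 lower in adhesion tissue at day 3 over day 1, 3 and 5 at day 7 over day 1, and 1 and 3 at day 7 over day 3. In heart it called 2 higher and 1 lower at day 3 over day 0, 2 lower at day 7 over day 0 and 2 lower at day 7 over day 3. Between tissues at day 7 it called 8 higher. Depth limits Egr3 and Egr2, with 2 to 4 and 9 to 10 reads in the heart libraries, and Fosb in heart at day 7, with 4 reads.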
